A study of Mus musculus with 6 samples.

Results

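The genes of the elastic fibre were followed in Achilles tendon tissue of mice after the tendon had been cut or after a sham operation. They were taken by symbol as Eln, Fbn1, Fbn2, Fbln1, Fbln2, Fbln5, Efemp1, Efemp2, Mfap4 and Mfap5, 10 of the 21878 genes in the deposited table, and all 10 passed the filter on low counts. The 2 groups were 3 libraries labelled Achilles tendon amputation (titled HO, called cut 1 to 3) and 3 labelled sham (titled Control, called sham 1 to 3). The series title places them in work on KLF2, PPARγ and heterotopic ossification, bone that forms outside the skeleton. No genotype, strain, age, agent or time after surgery was given for either group, and nothing says that replicates were separate animals, so the p-values below cover the variation among libraries alone, which may be technical.

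An elastic fibre has a core of crosslinked elastin laid on a scaffold of microfibrils, which are built from fibrillins. Fibulins and microfibril-associated proteins bring the pieces together, and lysyl oxidases crosslink the core. In tendon, elastic fibres run between and within the collagen bundles and help the tissue to recoil, and fibrillin microfibrils also hold growth factors of the TGF-β and BMP families in the matrix.

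The libraries held between 23916839 and 31346730 counts, so that 1 count was 0.0319 to 0.0418 CPM (counts scaled to library size). The 30 skeletal muscle genes listed took 1.62%, 0.504% and 15.7% of counts in cut 1, 2 and 3, and 19.2% to 21.3% in the sham libraries. Cut 3 therefore stood apart from cut 1 and 2, and the counts of called genes are given with and without it. For the tendon label, 1 of 7 listed tendon markers is shown here. Tnmd, a membrane protein of tendon cells, stood at 456 to 1014 CPM in cut tendon and at 44.5 to 78.2 CPM in sham. Mkx and Fmod of the same list overlapped between the groups and were not called. These values do not show how much of the tissue in either group was tendon.

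Of the 10 genes, 7 rose in cut tendon, 1 fell and 2 did not pass the test (edgeR quasi-likelihood fit over 14561 genes, adjusted p under 0.05). The background was 20.4% of all tested genes higher and 12.3% lower. In 8 of the 10 genes the values of the 2 groups did not overlap, against 54.8% of all tested genes. The median log2 fold change of the 10 genes was 1.76, beside -0.02 over all tested genes. Without cut 3, 7 members were higher and 1 lower, beside a background of 28.5% higher and 29.7% lower among 14779 genes. Without sham 2, 6 were higher and 0 lower in edgeR's fit (7 and 1 at an unadjusted p under 0.05). Over the whole table that fit called 1091 genes higher and 436 lower, against 2968 and 1789 with all libraries. In bulk tissue, fewer cells of a type and less RNA per cell cannot be told apart.

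**Figure D1:**
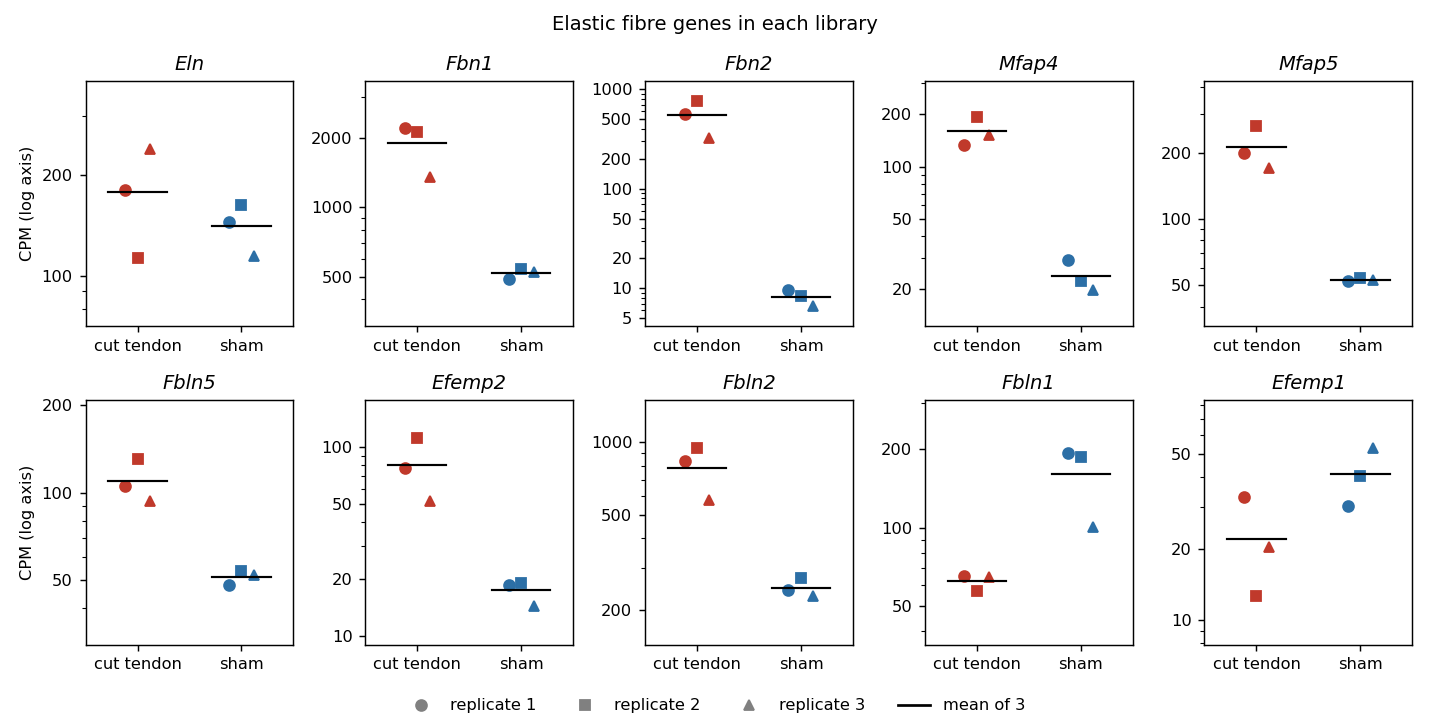
TMM-normalized CPM (log axis) of the 10 genes in each library, with cut tendon on the left and sham on the right of each panel and a bar at the mean of 3. The groups are apart in 8 panels, with Fbn2 the widest at 326 to 754 CPM in cut tendon and 6.68 to 9.56 CPM in sham, and they overlap for Eln and Efemp1.

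The fibrillins form the microfibril scaffold, and both rose. Fbn2, the fibrillin best known from embryonic tissue, stood at 566, 754 and 326 CPM in cut 1, 2 and 3, and at 9.56, 8.33 and 6.68 CPM in sham 1, 2 and 3. Every cut library was far above every sham library, and cut 3 was the lowest of the cut group. The log2 fold change was 6.07 ± 0.41 (SE, n = 3 per group), a 67.0-fold difference, with an adjusted p of 0.00238 in edgeR's quasi-likelihood fit. The sham value was low but measured, with 175 to 234 counts per library.

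Fbn1, the main fibrillin of adult tissue, in which mutations cause Marfan syndrome in humans, stood at 2193, 2113 and 1350 CPM in cut 1, 2 and 3, and at 491, 544 and 527 CPM in sham 1, 2 and 3. The sham libraries lay close together, and cut 3 again was the lowest of its group while above all sham values. Its log2 fold change was 1.86 ± 0.31 (edgeR adjusted p = 0.00865). Fbn1 was not called without sham 2, where its log2 fold change was 1.87 and its adjusted p in edgeR 0.0525.

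Both fibrillins were also set against each other. Per length (deposited FPKM, fragments scaled to gene length and library size), Fbn2 made up 19.0%, 24.5% and 18.0% of Fbn1 plus Fbn2 in cut 1, 2 and 3, and 1.74%, 1.37% and 1.14% in sham 1, 2 and 3. The means were 20.5% ± 3.50 in cut tendon and 1.42% ± 0.303 in sham (SD, n = 3 each). The groups did not overlap, and an exact two-sided permutation test gave p = 0.1, the smallest that 3 against 3 libraries allow (2 ratios were tested, and the p adjusted over both was also 0.1). Cut 3 and cut 1 were close to each other, and cut 2 was the highest.

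Mfap4 and Mfap5 code for glycoproteins bound to microfibrils, and both rose. Mfap4, which also binds elastin, stood at 133, 193 and 152 CPM in cut 1, 2 and 3, and at 29.3, 22.3 and 19.6 CPM in sham 1, 2 and 3. The groups were well apart, and cut 3 lay between cut 1 and cut 2. Its log2 fold change was 2.74 ± 0.23, a 6.70-fold difference (edgeR adjusted p = 0.00307).

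Mfap5, also known as MAGP-2, stood at 200, 265 and 170 CPM in cut 1, 2 and 3, and at 52.2, 53.8 and 52.8 CPM in sham 1, 2 and 3. The sham values were nearly equal and all cut values were above them. It rose by 2.0 ± 0.19 on the log2 scale (edgeR adjusted p = 0.00333). The FPKM ratio of Mfap5 to Fbn1 was 0.541, 0.744 and 0.747 in cut 1, 2 and 3 and 0.631, 0.587 and 0.595 in sham 1, 2 and 3, so that the groups overlapped. This ratio was chosen after its values were seen and was not tested.

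Eln, which codes for tropoelastin, the soluble unit of the elastin core, did not pass the test. It stood at 181, 114 and 238 CPM in cut 1, 2 and 3, and at 145, 163 and 115 CPM in sham 1, 2 and 3. The groups overlapped, cut 2 being the lowest of all 6 libraries and cut 3 the highest. Among the cut libraries Eln was highest in cut 3, in which both fibrillins were lowest. The log2 fold change was 0.33 ± 0.29 (edgeR adjusted p = 0.390). With the log2 summed CPM of the muscle genes as a covariate Eln was called higher, at 0.87 ± 0.24 (edgeR adjusted p = 0.0435). This setting changed no other call among the 10 genes. The covariate itself differed between the groups, at 14801, 5221 and 164570 CPM in cut 1, 2 and 3 and 190307 to 220962 CPM in sham. Without cut 3, and with no covariate, the log2 fold change of Eln was 0.06 (edgeR adjusted p = 0.828).

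Relative to its scaffold, elastin transcript was lower in every cut library. Eln stood at 15.9, 9.63 and 34.4 FPKM per 100 FPKM of fibrillin (Fbn1 plus Fbn2) in cut 1, 2 and 3, and at 69.0, 70.2 and 51.2 in sham 1, 2 and 3. The means were 19.98 ± 12.9 in cut tendon and 63.5 ± 10.6 in sham (SD, n = 3 each; exact two-sided permutation p = 0.1, the smallest possible, and 0.1 adjusted over the 2 ratios). The groups did not overlap, and cut 3 was nearest to sham. Without cut 3 the difference, cut minus sham, was -50.7, against -43.5 with all libraries.

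**Figure D2:**
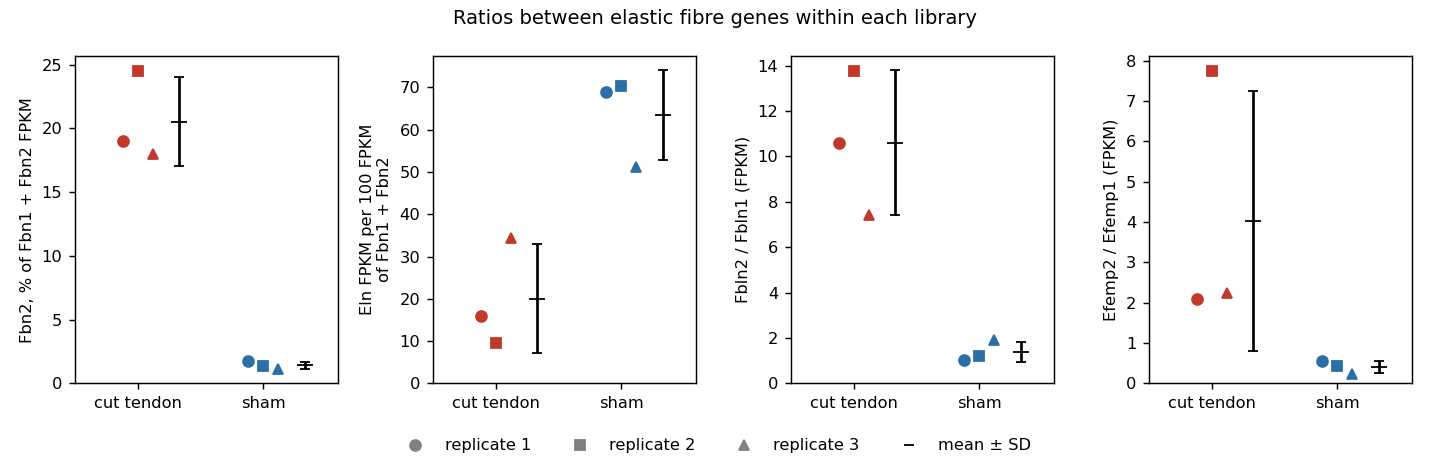
Ratios of deposited FPKM within each library, with cut tendon on the left and sham on the right, points for replicates 1 to 3 and the mean ± SD beside them; axes start at 0. Fbn2 as a percentage of both fibrillins, Fbln2 over Fbln1 and Efemp2 over Efemp1 are higher in each cut library than in each sham library, and Eln per 100 FPKM of fibrillin is lower.

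Fbln5 and Efemp2 code for fibulin-5 and fibulin-4, the short fibulins that mice need to build elastic fibres, and both rose. Efemp2, which brings lysyl oxidase to tropoelastin, stood at 77.7, 111 and 51.6 CPM in cut 1, 2 and 3, and at 18.8, 19.2 and 14.5 CPM in sham 1, 2 and 3. Cut 2 was highest and cut 3 lowest of the cut group, all above sham. On the log2 scale it rose by 2.19 ± 0.30 (edgeR adjusted p = 0.0057).

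Fbln5, which ties tropoelastin to microfibrils and binds integrins, stood at 105, 131 and 93.4 CPM in cut 1, 2 and 3, and at 48.1, 53.7 and 52.1 CPM in sham 1, 2 and 3. The groups did not overlap and the order of the cut libraries was that of Efemp2. The log2 fold change of 1.10 ± 0.16 (edgeR adjusted p = 0.0063) was the smallest among the 7 genes that rose.

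Efemp1, which codes for fibulin-3, the third short fibulin, stood at 32.9, 12.7 and 20.3 CPM in cut 1, 2 and 3, and at 30.3, 40.2 and 52.8 CPM in sham 1, 2 and 3. The groups overlapped, since cut 1 was above sham 1. Its log2 fold change was -0.90 ± 0.37 and was not called (edgeR adjusted p = 0.104, unadjusted p = 0.0482). The FPKM ratio of Efemp2 to Efemp1 was 2.08, 7.74 and 2.24 in cut 1, 2 and 3 and 0.546, 0.422 and 0.243 in sham 1, 2 and 3, with no overlap. It was chosen after the values were seen and was not tested.

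The long fibulins differed in direction. Fbln2, a glycoprotein that binds fibrillin, elastin and basement membrane proteins, stood at 834, 944 and 577 CPM in cut 1, 2 and 3, and at 242, 272 and 230 CPM in sham 1, 2 and 3. All cut libraries were above all sham libraries, and cut 3 was nearest to sham. It rose by log2 1.66 ± 0.25 (edgeR adjusted p = 0.00714).

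Fbln1, which binds elastin, fibronectin and proteoglycans, was the member that fell. It stood at 65.4, 56.9 and 64.6 CPM in cut 1, 2 and 3, and at 194, 187 and 100.6 CPM in sham 1, 2 and 3. The cut libraries lay close together and below all sham libraries, of which sham 3 was the lowest. The log2 fold change was -1.37 ± 0.26, 2.58-fold lower in cut tendon (edgeR adjusted p = 0.0132), and it was not called without sham 2 (-1.26, edgeR adjusted p = 0.0557). The FPKM ratio of Fbln2 to Fbln1 was 10.6, 13.8 and 7.41 in cut 1, 2 and 3, and 1.04, 1.21 and 1.89 in sham 1, 2 and 3; this ratio was chosen after the values were seen and was not tested.

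Summed over the 10 genes, the transcript level per length was 839, 836 and 567 FPKM in cut 1, 2 and 3 and 270, 283 and 229 FPKM in sham 1, 2 and 3. The makeup of that sum is described without a test. Fbn1 took 24.9% ± 2.998 of it in cut tendon and 19.9% ± 1.87 in sham, while Fbln2 took 22.5% ± 1.51 and 20.5% ± 0.642 (SD, n = 3 each). Eln took 6.002% ± 3.18 in cut tendon and 12.7% ± 1.17 in sham, and Fbln1 2.23% ± 0.551 in cut tendon and 15.8% ± 4.23 in sham. Mfap4 took 13.1% ± 2.47 in cut tendon and 5.51% ± 1.05 in sham.

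The order of the mean FPKM levels was Fbn1, Fbln2, Mfap5, Mfap4, Fbn2, Eln, Efemp2, Fbln5, Fbln1 and Efemp1 in cut tendon, from 188 FPKM for Fbn1 to 10.5 FPKM for Efemp1. In sham it was Fbln2, Fbn1, Fbln1, Eln, Mfap5, Efemp1, Mfap4, Fbln5, Efemp2 and Fbn2, from 53.2 FPKM for Fbln2 to 0.739 FPKM for Fbn2. In cut tendon the ranges of neighbours in this order overlapped except between Mfap4 (at least 87.0 FPKM) and Fbn2 (at most 65.4 FPKM). In sham the ranges did not overlap between Mfap5 and Efemp1, between Mfap4 and Fbln5, or between Efemp2 and Fbn2. Fbn2 was thus the lowest of the 10 in sham and the fifth in cut tendon, and Fbln1 was the third in sham and the ninth in cut tendon.

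**Figure D3:**
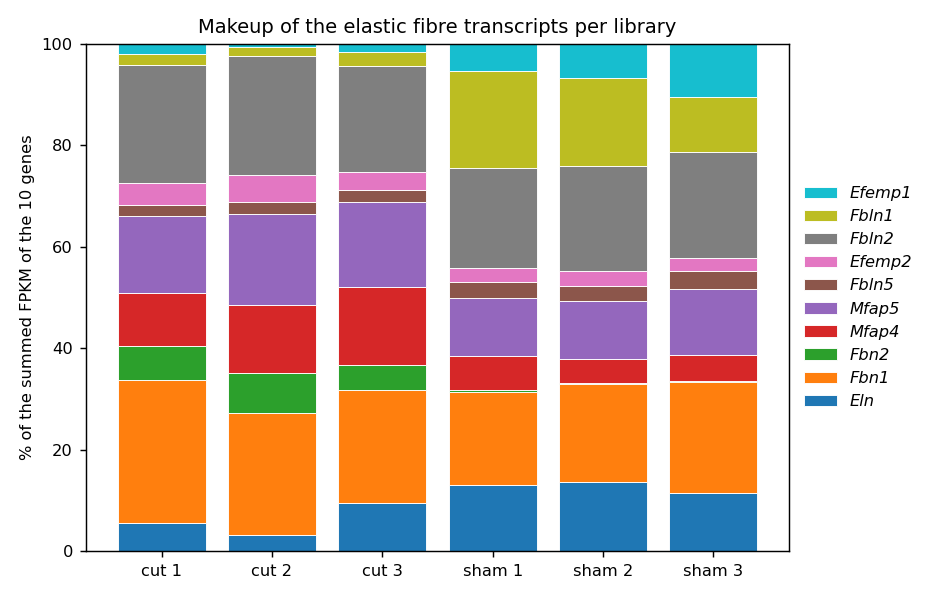
Share of each gene in the summed deposited FPKM of the 10 genes, as stacked bars per library, cut 1 to 3 on the left and sham 1 to 3 on the right. Fbn2 takes 4.92% to 7.83% in the cut libraries and at most 0.326% in the sham libraries. Fbln1, Efemp1, Eln and Fbln5 take smaller shares in each cut library than in each sham library, although Fbln5 itself rose in CPM.

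Promoters were searched for 6 of the 10 genes, and not for Eln, Fbn2, Mfap4 or Mfap5. They were taken from the RefSeq table used (GRCm38.p6), each from 250 bases before to 50 after a transcription start. Those of 2 fibre genes that rose (Fbn1 and Fbln2), of the gene that fell (Fbln1) and of the uncalled Efemp1 are shown, so that the genes that moved apart can be read side by side. Capitals mark matches on either strand to the Sp1-type motif GGGCGG or to the AP-1 element, spelled TGANTCA. The core promoter element TATAAA and the TEAD element, spelled GGAATG, were also searched on both strands. Matches of different motifs did not overlap.
Fbn1, chr2:125506389-125506688, minus strand: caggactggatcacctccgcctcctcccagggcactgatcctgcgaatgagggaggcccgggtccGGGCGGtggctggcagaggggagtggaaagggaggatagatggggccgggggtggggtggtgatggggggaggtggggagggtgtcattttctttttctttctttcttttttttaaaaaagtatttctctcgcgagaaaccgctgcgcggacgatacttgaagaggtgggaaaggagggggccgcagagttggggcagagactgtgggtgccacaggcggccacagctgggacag
Fbln2, chr6:91212514-91212813, plus strand: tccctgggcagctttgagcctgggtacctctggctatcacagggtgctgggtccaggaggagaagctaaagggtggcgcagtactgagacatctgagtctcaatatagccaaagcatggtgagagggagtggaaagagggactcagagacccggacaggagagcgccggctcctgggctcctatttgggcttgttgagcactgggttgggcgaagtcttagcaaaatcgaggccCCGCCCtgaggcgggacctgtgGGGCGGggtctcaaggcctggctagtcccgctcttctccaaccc
Fbln1, chr15:85205699-85205998, plus strand: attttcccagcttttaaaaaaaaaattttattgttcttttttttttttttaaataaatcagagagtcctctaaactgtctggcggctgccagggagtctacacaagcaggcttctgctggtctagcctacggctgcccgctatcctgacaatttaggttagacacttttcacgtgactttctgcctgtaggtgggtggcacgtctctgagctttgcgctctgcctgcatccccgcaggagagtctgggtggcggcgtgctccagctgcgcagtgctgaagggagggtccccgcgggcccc
Efemp1, chr11:28852955-28853254, plus strand: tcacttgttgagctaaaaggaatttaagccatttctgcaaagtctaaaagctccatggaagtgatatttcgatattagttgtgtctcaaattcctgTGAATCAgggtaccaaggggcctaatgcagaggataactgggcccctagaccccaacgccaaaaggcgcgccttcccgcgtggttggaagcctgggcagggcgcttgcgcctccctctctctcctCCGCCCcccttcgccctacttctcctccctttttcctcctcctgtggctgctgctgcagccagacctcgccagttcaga
GGGCGG was matched 1 time in the Fbn1 window, 2 times in that of Fbln2, 1 time in that of Efemp1 and 0 times in this Fbln1 window; the second Fbln1 start in the table, chr15:85205758-85206057, had 2 matches. TGANTCA was matched once, in Efemp1. No window of the 6 genes matched TATAAA or GGAATG. Of 32851 promoters of the same length, 35.7% held GGGCGG, 7.81% TGANTCA, 13.6% TATAAA and 14.7% GGAATG. These matches describe letters and not bound sites.

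The other genes of elastic fibre assembly, crosslinking, breakdown and cell contact were read from 5 lists. Of 48 tested genes, 31 rose and 1 fell, beside the 20.4% and 12.3% of all tested genes, with a median log2 fold change of 1.03. These counts depended on the libraries. Without cut 1, 2 and 3 in turn 15, 20 and 36 rose, and without sham 1, 2 and 3 in turn 16, 14 and 16. With the muscle covariate 18 rose. The calls over all genes moved as well. There 2968 rose with all libraries, and 1585, 1863 and 4212 without cut 1, 2 and 3 in turn. Without sham 1, 2 and 3 in turn 1566, 1091 and 1359 of all genes rose, and with the covariate 1580. Without cut 3, 2 list genes fell, and with the replicate number as a block 3. Over all genes 4392 and 2522 fell in these 2 fits, against 1789 in the main fit.

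**Figure D4:**
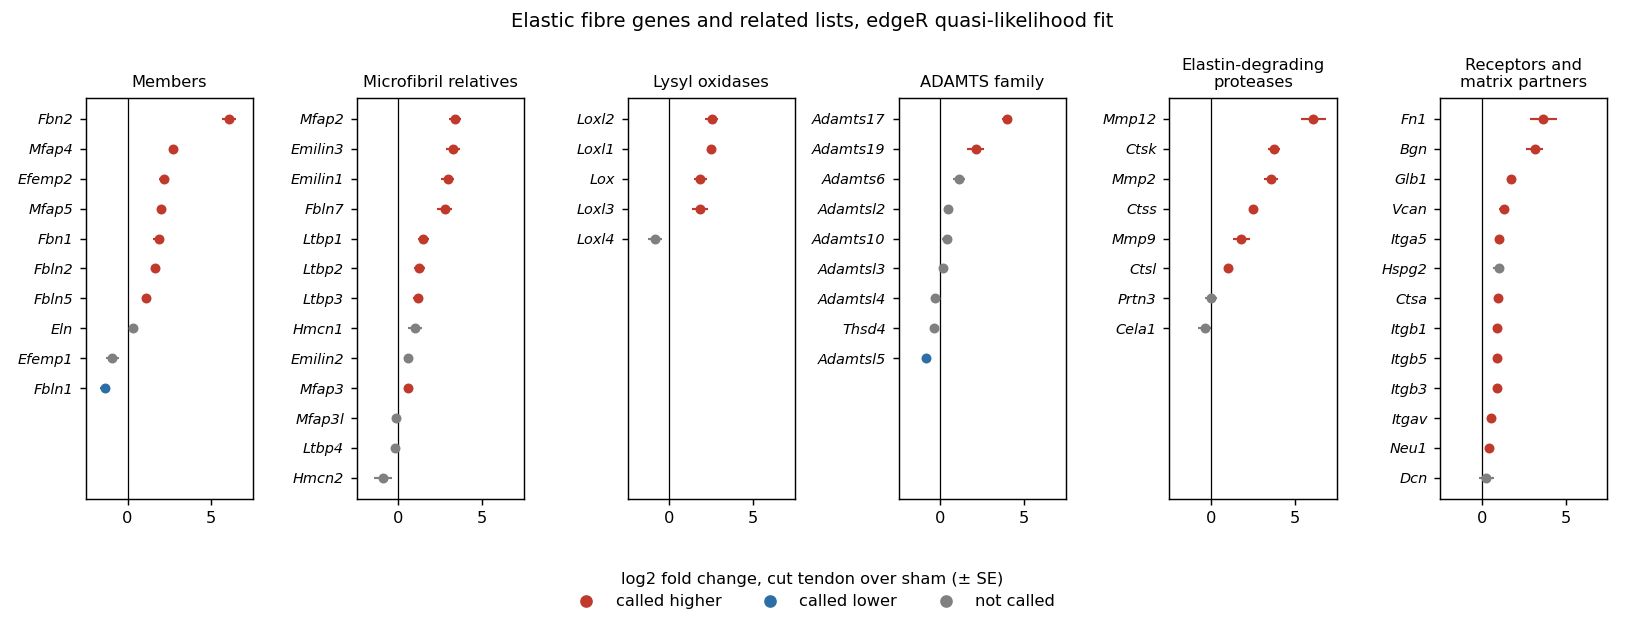
Log2 fold changes of cut tendon over sham with their standard errors for the 10 elastic fibre genes and the tested genes of the 5 related lists, from the edgeR fit; red points were called higher, blue lower and grey not called. The 7 red members run from Fbln5 at 1.10 to Fbn2 at 6.07, and Adamtsl5 of the ADAMTS family is the only blue point in the 5 lists.

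Among 13 relatives of the microfibril and fibulin proteins, 8 rose and 5 were not called (median log2 1.17), and without cut 3, 10 rose and 1 fell. The shares of all tested genes were 20.4% higher and 12.3% lower, and 28.5% and 29.7% without cut 3. Mfap2, the microfibril glycoprotein MAGP-1 and closest relative of Mfap5, stood at 64.0, 76.5 and 33.9 CPM in cut 1, 2 and 3 and at 5.88, 6.89 and 4.24 CPM in sham 1, 2 and 3. Its log2 fold change was 3.36 ± 0.36 (edgeR adjusted p = 0.00387). The emilins Emilin3 (3.26 ± 0.43) and Emilin1 (2.94 ± 0.41) and the fibulin Fbln7 (2.78 ± 0.45) also rose in edgeR's fit. Ltbp4, a TGF-β binding protein that mice need for elastic fibre assembly, stood at 423, 401 and 429 CPM in cut 1, 2 and 3 and at 478, 538 and 409 CPM in sham 1, 2 and 3. Its groups overlapped and it was not called (-0.19 ± 0.19; edgeR adjusted p = 0.467).

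Of the 5 lysyl oxidase genes, whose enzymes crosslink elastin and collagen, 4 rose and 1 was not called (median log2 1.85). Without cut 3, 4 also rose. Over all tested genes 20.4% were higher and 12.3% lower, and 28.5% and 29.7% without cut 3. Loxl1, the oxidase most tied to elastic fibres in mice, stood at 228, 247 and 160 CPM in cut 1, 2 and 3 and at 32.7, 42.4 and 38.5 CPM in sham 1, 2 and 3. It rose by log2 2.48 ± 0.22 and Loxl2 by 2.54 ± 0.39 (edgeR adjusted p = 0.00317 and 0.00714). Lox rose by 1.85 ± 0.38 but was not called without cut 1 or without sham 1, 2 or 3 (1.63 to 1.95). Loxl4, at -0.86 ± 0.41, was not called, and was called lower with the replicate block (-0.81).

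In the family of ADAMTS and ADAMTS-like proteins, several of which bind fibrillin, 2 of 9 genes rose, 1 fell and 6 were not called (median log2 0.39). These shares were near those of all tested genes, 20.4% higher and 12.3% lower, so that the counts show nothing about the family. Without cut 3, 4 rose and 1 fell, beside 28.5% of all tested genes higher and 29.7% lower. Adamts17, a protease gene tied to short stature and lens defects in humans, stood at 21.2, 19.7 and 17.6 CPM in cut 1, 2 and 3 and at 1.80, 0.909 and 0.916 CPM in sham 1, 2 and 3. It rose by log2 4.02 ± 0.30 (edgeR adjusted p = 0.00272). Adamtsl5, which codes for an ADAMTS-like protein, stood at 31.4, 30.7 and 40.0 CPM in cut 1, 2 and 3 and at 60.6, 60.0 and 61.2 CPM in sham 1, 2 and 3, and fell (-0.83 ± 0.14; edgeR adjusted p = 0.00846).

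Of 11 genes for proteases that can cleave elastin, 8 passed the filter, of which 6 rose and 2 were not called (median log2 2.16). Without cut 3, 6 were also higher. The background was 20.4% of all tested genes higher and 12.3% lower, and 28.5% and 29.7% without cut 3. Ctsk, the cathepsin of osteoclasts and activated fibroblasts, stood at 617, 750 and 378 CPM in cut 1, 2 and 3 and at 47.9, 48.9 and 32.9 CPM in sham 1, 2 and 3, and rose by log2 3.75 ± 0.34. Ctss, a macrophage cathepsin, rose by 2.52 ± 0.23 (edgeR adjusted p = 0.00332 for both). Mmp12, the macrophage metalloelastase, stood at 46.5, 12.6 and 52.7 CPM in cut 1, 2 and 3 and at 0.531, 0.227 and 0.840 CPM in sham 1, 2 and 3, and rose by 6.12 ± 0.74. Mmp2, a gelatinase that also cleaves elastin, rose by 3.58 ± 0.42 (edgeR adjusted p = 0.0044 for Mmp2 and 0.00454 for Mmp12). The neutrophil elastase gene Elane, Ctsg and Mmp7 did not pass the filter.

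Of 13 receptors and matrix partners, 11 rose and 2 were not called (median log2 0.94), and 12 rose without cut 3. Beside these counts, 20.4% of all tested genes were higher and 12.3% lower, and 28.5% and 29.7% without cut 3. Glb1, which also gives rise to the elastin-binding protein of the elastin receptor complex, stood at 41.9, 51.5 and 31.04 CPM in cut 1, 2 and 3 and at 12.7, 13.5 and 11.2 CPM in sham 1, 2 and 3, and rose by log2 1.74 ± 0.21. Ctsa, the lysosomal partner in that complex, stood at 155, 182 and 138 CPM in cut 1, 2 and 3 and at 80.2, 79.6 and 87.2 CPM in sham 1, 2 and 3, and rose by 0.94 ± 0.15 (edgeR adjusted p = 0.00446 for Glb1 and 0.00756 for Ctsa).

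The tested genes whose pattern was most like that of Eln were Tnfaip3, Shb, Cygb, Parm1 and Ehd4, with Pearson correlations of log2 CPM with Eln of 0.988, 0.963, 0.947, 0.943 and 0.927 over the 6 libraries, out of 11284 genes with a mean of at least 5 CPM. Their log2 fold changes ran from 0.04 to 0.25 and none was called by the edgeR fit. With 6 libraries and so many genes, correlations of this size describe these libraries only.

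Markers of the cells that the tissue can hold also moved between the groups, and their part in the results was not tested. The background for their counts was 20.4% of all tested genes higher and 12.3% lower. In the fit without cut 3 it was 28.5% higher and 29.7% lower. All 8 injury fibroblast markers rose, and their summed level was 7198 to 17309 CPM in cut tendon and 650 to 1137 CPM in sham. Of 9 markers of resting adventitial fibroblasts, 4 rose and 1 fell (1153 to 1385 CPM in cut tendon, 713 to 866 CPM in sham). Of 10 smooth muscle markers, 1 rose and 4 fell (1117 to 1435 CPM in cut tendon, 1756 to 2243 CPM in sham). The gap between these sums leans on Synpo2, which was not called. Synpo2 held 83.0, 39.8 and 373 CPM in cut 1, 2 and 3 and 605 to 695 CPM in sham, and like the skeletal muscle genes was highest of the cut group in cut 3. Of 10 endothelial markers 5 fell (632 to 911 CPM in cut tendon, 1145 to 1324 CPM in sham). Of 10 macrophage markers 9 rose (1045 to 1341 CPM in cut tendon, 356 to 476 CPM in sham). Among 7 tendon markers 5 rose (40171 to 103333 CPM in cut tendon, 4076 to 9986 CPM in sham), and of 10 tested cartilage markers 9 rose (3481 to 14505 CPM in cut tendon, 415 to 1447 CPM in sham). Col1a1 alone held 34513.8 to 89951.1 CPM of the tendon sum in cut tendon and 2150.0 to 5491.5 CPM in sham. Most of the cartilage sum in sham was Comp, at 331 to 1265 CPM, the tested cartilage marker that was not called. The 30 skeletal muscle markers had 14801, 5221 and 164570 CPM in cut 1, 2 and 3 and 190307 to 220962 CPM in sham. With all libraries 0 of them were called in edgeR's fit (3 at an unadjusted p under 0.05, 10 in DESeq2, which gave no adjusted p for 13), and without cut 3 all 30 were called lower, with a median log2 fold change of -4.06. Without cut 3 the other lists gave 8 higher and 0 lower for injury fibroblasts, 5 and 2 for resting adventitial fibroblasts, 2 and 6 for smooth muscle, 0 and 9 for endothelium, and 9 and 1 for macrophages. For tendon they gave 7 and 0, and for cartilage, with 11 genes tested, 11 and 0. No marker in the table was at 0 in all libraries. With cut 3, the library rich in muscle transcripts, left out, the log2 fold change was 2.05 for Fbn1, 6.33 for Fbn2, 0.06 for Eln and -1.39 for Fbln1.

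In the GRCm38.p6 assembly Eln (NCBI gene 13717) lies on chromosome 5 at 134702595 to 134747368, Fbn1 (14118) on chromosome 2 at 125300594 to 125506485, Fbn2 (14119) on chromosome 18 at 58008623 to 58210572, Fbln1 (14114) on chromosome 15 at 85205949 to 85286294 and Fbln2 (14115) on chromosome 6 at 91212460 to 91272540. Fbln5 (23876) lies on chromosome 12 at 101746565 to 101819119, Efemp1 (216616) on chromosome 11 at 28853154 to 28926743, Efemp2 (58859) on chromosome 19 at 5473946 to 5482520, Mfap4 (76293) on chromosome 11 at 61485431 to 61488708 and Mfap5 (50530) on chromosome 6 at 122513584 to 122529290. Exons of 5 members share bases with a gene on the other strand in GENCODE M21, and the strand setting of the counting is not given in the sources used here. The shared stretch is 2442 of 12128 exon bases for Fbn1 (with Gm9913), 267 of 8098 for Eln, 129 of 13215 for Fbn2, 173 of 3788 for Efemp2 (with Mus81) and 89 of 1922 for Mfap4 (with Mapk7). Reads there may not be told apart by strand. Mus81 held 329 to 434 counts in cut tendon and 345 to 428 in sham and was not called, beside 1538 to 3288 counts of Efemp2 in cut tendon and 380 to 508 in sham. Mapk7 held 522 to 853 counts in cut tendon and 283 to 394 in sham and rose (log2 0.83, edgeR adjusted p = 0.0392), beside 4120 to 5719 counts of Mfap4 in cut tendon and 514 to 718 in sham.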

How the data were processed

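Per the labels' protocols, the mirVana kit gave total RNA, and sequencing libraries came from Illumina's stranded TruSeq kit after ribosomal RNA depletion (Ribo-Zero Gold). The submitters' processing notes name Trimmomatic, HISAT2 and the GRCm38.p6 assembly; versions and the counting program are not given in the sources used here. The authors deposited whole read counts per gene, not normalized, and FPKM; the values show that the FPKM are the counts divided by a whole-number gene length (within 0.05 bases, 100% of 15164 genes) and by the library total. Positions were matched by NCBI gene identifier.

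Counts were fitted in R 4.3.3 with edgeR 4.0.16 (filterByExpr, TMM scaling, quasi-likelihood test, Benjamini-Hochberg adjustment over 14561 genes, threshold 0.05). CPM are TMM-normalized and SE are the absolute log2 fold change over the square root of F. Ratios were taken from deposited FPKM in Python 3.11.15 (scipy 1.17.1) with an exact permutation test over libraries. Alternatives used limma 3.58.1 and DESeq2 1.42.0; on FPKM, pseudocounts of 1 and 0.1 were added before log2.

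The members, lists and tests were chosen with earlier results of these data known. All 10 members were named, and of each of 5 lists the 2 genes with the smallest p and, where calls went both ways, the strongest of the other direction; Fbln7, Emilin1, Ltbp4, Lox, Loxl4, Mmp2, Mmp12, Tnmd and the markers named were chosen after their values were seen, as were the untested ratios and the list counts without cut 3. Replicate numbers come from the sample titles; deviations from the group means correlated at 0.259, 0.13 and 0.409 between libraries numbered 1, 2 and 3, and between differently numbered libraries at -0.332 to 0.244. Each same-numbered correlation was over 0.1, but so were those of cut 2 with sham 1 (0.244) and of cut 1 with sham 2 (0.115). It is therefore uncertain whether the numbers pair the libraries. The main edgeR fit and the permutation tests took no account of pairing, and a paired fit was run as an alternative. The closest pair of libraries, sham 1 and 2, still had a chi-square of 15.6 per gene, far from equal counts.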

Additional observations from a re-analysis of the deposited data

How the results depend on the processing

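The 10 genes were refitted under 18 alternatives, and 177 of 180 values kept their direction and their side of the threshold. The exceptions were Fbn1 and Fbln1 without sham 2 (log2 1.87 and -1.26, not called) and Eln with the muscle covariate (0.87, called). No value of the 10 genes changed sign. Leaving out each library in turn gave 6 to 7 members higher and 0 to 1 lower; the 0 came without sham 2 in edgeR, where 1 was lower at an unadjusted p under 0.05, and no other tool was run on those libraries. The replicate block, a paired fit, gave 7 members higher and 1 lower, and changed no call among them. Over all genes, 2968 were higher and 1789 lower, against 1580 and 750 with the muscle covariate, 2776 lower in DESeq2, and 1091 to 4212 higher and 436 to 4392 lower with a library left out. Of the list genes 31 were higher, against 18 with the covariate and 14 to 36 with a library left out, and 1 was lower, against 3 with the block and 1 to 2 with a library left out. From read counts in place of FPKM, Eln per 100 of fibrillin differed by -18.4 instead of -43.5, since counts are not divided by gene length. Scaling alternatives moved the median of all genes by at most 0.05 (log2). With 3 libraries per group, no permutation test could pass 0.05.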

Other observations

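Markers of 2 cell types that can lay down elastic fibres were read singly, as values with no explanation. Among resting adventitial fibroblast markers, Pi16 stood at 145, 176 and 185 CPM in cut 1, 2 and 3 and at 41.4, 65.0 and 71.3 CPM in sham 1, 2 and 3, and rose by log2 1.51 ± 0.24 (edgeR adjusted p = 0.00749). Cd248, which codes for endosialin, rose by 1.56 ± 0.15 and the semaphorin gene Sema3c by 0.99 ± 0.15. Ly6a also rose, by 1.198. Dpp4 (-0.65), Cd34 (0.36), Ly6c1 (0.56) and Clec3b (0.36) were not called by edgeR. Of these, Dpp4 was lower and Cd34 higher in every cut library than in every sham library. Pcolce2, an enhancer of procollagen processing, fell by 1.09 on the log2 scale and was not called without cut 1, sham 1 or sham 2 (-1.16, -1.03 and -0.97). The 10 smooth muscle markers went different ways. Mylk, Lmod1, Myh11 and Myocd fell by 1.15, 1.53, 1.44 and 1.54 on the log2 scale, and Actg2 rose by 0.49. Acta2 (-0.01), Tagln (0.10), Smtn (0.50), Cnn1 (-0.60) and Synpo2 (-1.97) were not called by edgeR. None of the 5 genes that rose or fell was called in edgeR's fit without sham 2 (Mylk -1.14, Lmod1 -1.51, Myh11 -1.38, Myocd -1.50 and Actg2 0.44). With the muscle covariate Lmod1 (-1.20), Myh11 (-0.998), Myocd (-1.12) and Actg2 (0.44) were not called either. Nor was Myh11 called without cut 1 (-1.56) or sham 1 (-1.32), Myocd without sham 1 (-1.43), or Actg2 without cut 1, cut 2, sham 1 or sham 3 (0.45, 0.49, 0.47 and 0.50).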
